A study of Caenorhabditis elegans with 6 samples.

Results

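The fatty acid desaturase genes of Caenorhabditis elegans, fat-1 to fat-7, and 3 genes that regulate them, sbp-1, nhr-49 and nhr-80, were followed in atfs-1(et18) mutant worms and in wild-type worms. These are 10 of the 17118 genes that have a probe set of their own on the array. They were chosen by name, with earlier results of these data known. Every probe set that the array annotation assigns to 1 of these symbols alone was taken. This gave 11 of the 22548 probe sets other than controls (2 for nhr-49 and 1 for each other gene). All 11 lay above the 40th percentile of signal on all 6 arrays, so each of them passed the filter on dim probe sets and was tested.

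RNA of whole worms was hybridised to Affymetrix expression arrays, with 3 biological replicates of atfs-1(et18) and 3 of the wild-type strain N2. Both genotypes were synchronised by bleaching, grown on solid medium with E. coli OP50 as food and collected at the L4 larval stage, and the labels name no other allele or agent. The transcription factor ATFS-1 responds to mitochondrial stress by activating protective genes. In the et18 gain-of-function allele, an amino acid change lies in the sequence that directs the protein into mitochondria. The allele is not a deletion, so the level of the atfs-1 transcript does not check the labels. Its signals were 346, 355 and 289 in atfs-1(et18) worms, against 207, 284 and 277 in wild-type worms (log2 change 0.38 ± 0.20 SE, limma adjusted p = 0.400).

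Desaturases place double bonds in fatty acids. FAT-5, FAT-6 and FAT-7 make the first one, FAT-5 mainly in palmitic acid and FAT-6 and FAT-7 mainly in stearic acid, which becomes oleic acid. FAT-2 turns oleic acid into linoleic acid, and FAT-1 adds the omega-3 double bond. FAT-3 and FAT-4 then act near the carboxyl end of the chain and, with elongases, complete the long polyunsaturated fatty acids such as arachidonic and eicosapentaenoic acid, FAT-3 before FAT-4. Most of this synthesis takes place in the intestine and the hypodermis. SBP-1, the worm homologue of the sterol regulatory element binding proteins, and the nuclear hormone receptors NHR-49 and NHR-80 are known to activate the genes of the first step.

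The trimmed mean of the signals (highest and lowest 2% left out) was 500 on all 6 arrays, while their medians ran from 111 to 137. Precision is limited by the number of arrays. Markers of the tissues of a whole worm were present. All 13 intestine, all 11 hypodermis, all 6 neuron and all 10 germline markers tested lay above the 40th percentile on every array, as did 4 of 5 pharynx, 4 of 5 body wall muscle and 4 of 5 sperm markers tested. A marker was tested only if above that percentile on at least 3 arrays, so these counts are high in part by the filter. The pharynx marker ceh-22 and the sperm markers spe-38 and snf-10 have probe sets but did not pass it. Germline markers were highest in sum on 1 array of each genotype, less clearly so in the mutant. Their summed signal was 14739 on atfs-1(et18) replicate 3, against 12408 and 10985 on the other atfs-1(et18) arrays, and 17814 on wild-type replicate 1, against 10473 and 8631 on the other wild-type arrays. As a mean log2 deviation from the genotype mean, the markers were at -0.03, -0.18 and 0.20 on atfs-1(et18) replicates 1, 2 and 3. Values without atfs-1(et18) replicate 3 and wild-type replicate 1 are given beside some of the results.

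In atfs-1(et18) worms fat-7 and fat-3 fell, and no desaturase or regulator gene rose. The fall of fat-7, a stearic acid desaturase, was 2.59-fold (95% interval 1.65 to 4.07), and that of fat-3, the first of the front-end desaturases, was 1.78-fold (1.43 to 2.21). These 2 of 11 probe sets (18.2%) passed the limma threshold of an adjusted p under 0.05, where 3.93% of the 13792 probe sets tested passed it in either direction, 1.3% as lower and 2.63% as higher. The same 2 were the only ones of the 11 at an unadjusted p under 0.05, which 17.2% of all probe sets tested reached. Because the genes were chosen with earlier results of these data known, these shares describe them and test nothing. All 7 desaturase genes had a negative change, but fat-2 turned to 0.07 with quantile normalization and to 0.06 without atfs-1(et18) replicate 3, and fat-5 turned to 0.004 without atfs-1(et18) replicate 2 and to 0.09 without wild-type replicate 3. Their median log2 change was -0.24, against -0.008 over all probe sets tested. In whole-worm RNA, fewer cells that express a gene and less of its RNA per cell cannot be told apart.

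**Figure D1:**
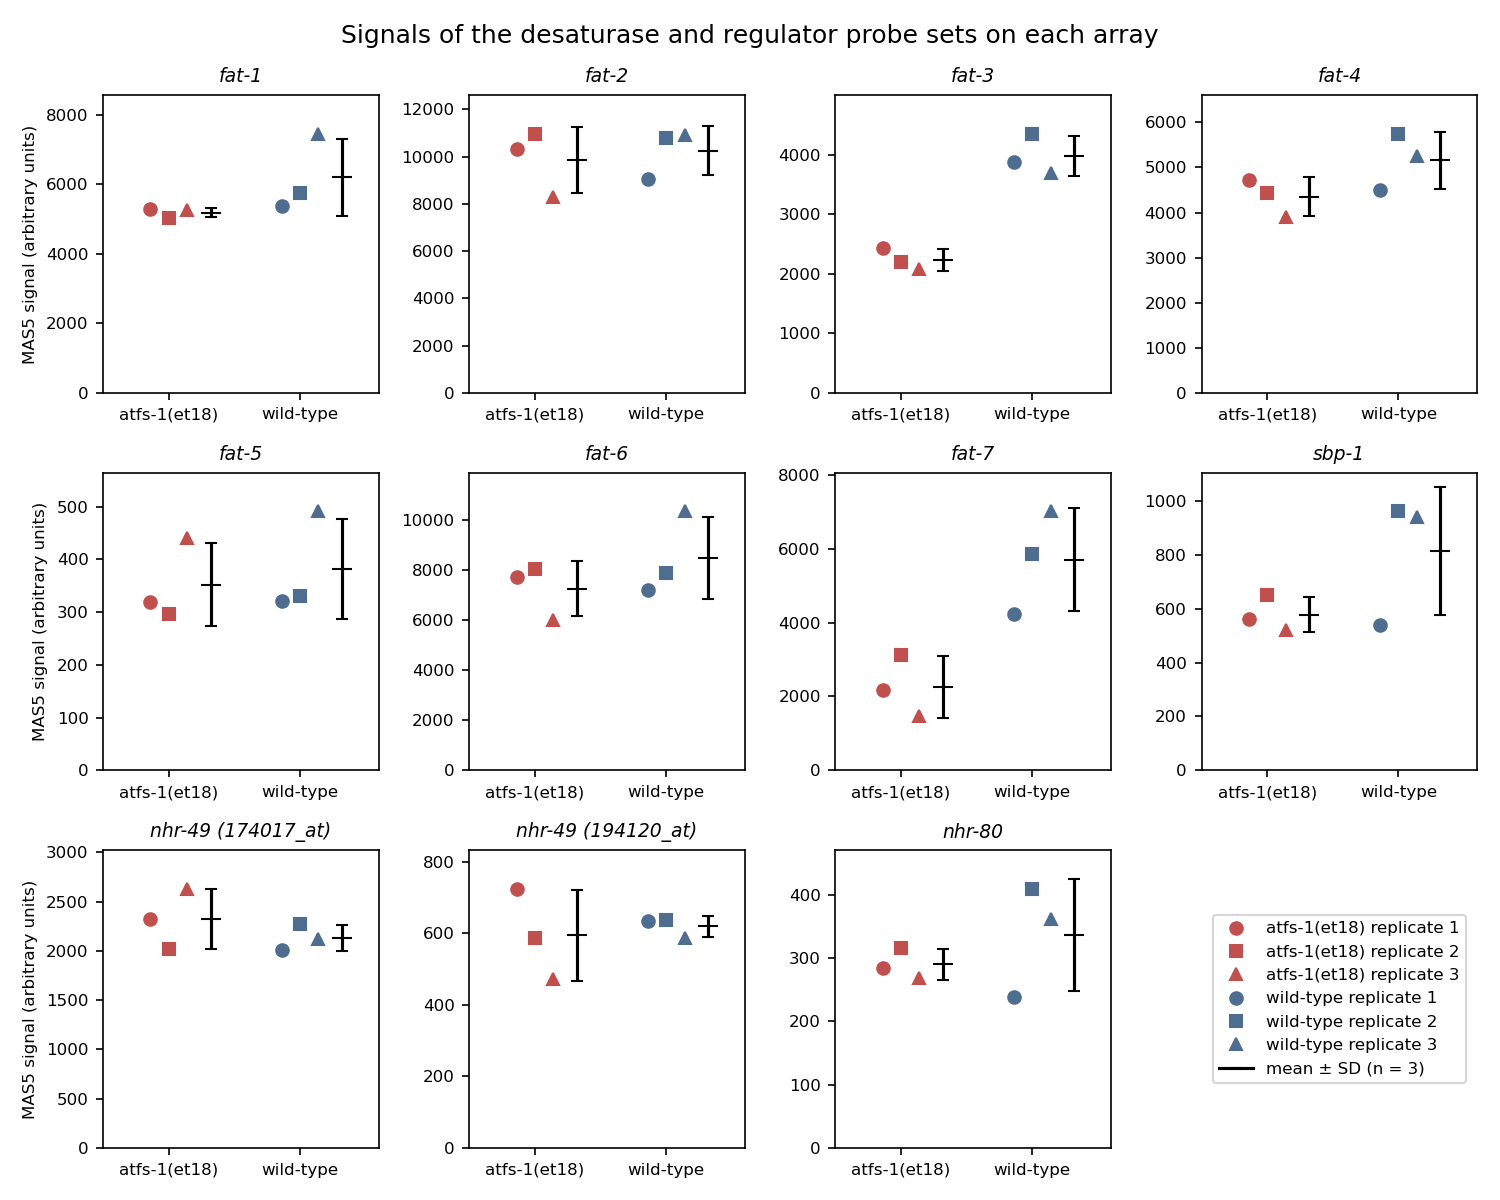
MAS5 signal (arbitrary units, linear axes from 0) of each of the 11 probe sets on each array, with atfs-1(et18) left and wild-type right; points are arrays, and black bars are the mean ± SD of 3 arrays. The atfs-1(et18) arrays lie wholly below the wild-type arrays for fat-1, fat-3 and fat-7, and the genotypes overlap for the other 8 probe sets.

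Of the genes of the first double bond, fat-7 passed the threshold, and fat-6 and fat-5 did not. For fat-7 (F10D2.9) the signals were 2182, 3132 and 1462 in atfs-1(et18) worms, against 4233, 5846 and 7008 in wild-type worms. Each mutant array lay below each wild-type array, and both genotypes spread widely. The means were 2259 ± 838 in atfs-1(et18) worms and 5695 ± 1394 in wild-type worms (SD, n = 3 each), and the log2 change was -1.37 ± 0.29 (SE, limma adjusted p = 0.0345). Only 1.23% of the probe sets tested had a more negative change. The call ended without atfs-1(et18) replicate 1 (-1.38, adjusted p = 0.147) or replicate 3 (-1.09, 0.0882) and without wild-type replicate 2 (-1.34, 0.146) or replicate 3 (-1.21, 0.114), and also with median scaling (adjusted p = 0.0892) and without the intensity trend (0.0854). Without the 2 arrays that were high in germline markers, the fall was 1.29 on the log2 scale with adjusted p = 0.0149.

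The close relative fat-6 (VZK822L.1), which encodes the other stearic acid desaturase, had signals of 7744, 8071 and 6001 in atfs-1(et18) worms, against 7228, 7915 and 10363 in wild-type worms. The 2 genotypes overlapped: only wild-type replicate 3 was above all the mutant arrays. The log2 change of fat-6 was -0.22 ± 0.18 (SE, adjusted p = 0.609), with a fold of 0.858 that could lie between 0.645 and 1.14. Its probe set is of a kind that can bind related transcripts. For fat-5 (W06D12.3), the palmitic acid desaturase, signals were 319, 296 and 442 in atfs-1(et18) worms, against 322, 332 and 491 in wild-type worms. In each genotype replicate 3 was the high one, and the change of -0.11 ± 0.24 was smaller than the spread between replicates (adjusted p = 0.866, fold 0.926 with an interval of 0.636 to 1.35). Without the 2 arrays high in germline markers the change of fat-5 was -0.39 (adjusted p = 0.421).

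Whether the change of fat-7 differed from those of its relatives was asked within arrays, where the scaling of an array cancels. The log2 signal of fat-7 minus that of fat-6 was -1.83, -1.37 and -2.04 on the atfs-1(et18) arrays, against -0.77, -0.44 and -0.56 on the wild-type arrays. The 2 genotypes did not overlap, and the changes of the 2 genes differed by -1.15 (two-sided exact permutation p = 0.1, the smallest that 3 against 3 arrays can give; 0.15 after Benjamini-Hochberg adjustment over 3 pairs). For fat-7 against fat-5 the changes differed by -1.26, with arrays again apart (exact p = 0.1, adjusted 0.15). The changes of fat-6 and fat-5 differed by -0.11 (exact p = 1, adjusted 1). This difference ran from -0.31 to 0.20 over its alternatives, while that of fat-7 and fat-6 ran from -1.34 to -1.01 and that of fat-7 and fat-5 from -1.65 to -0.81.

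**Figure D2:**
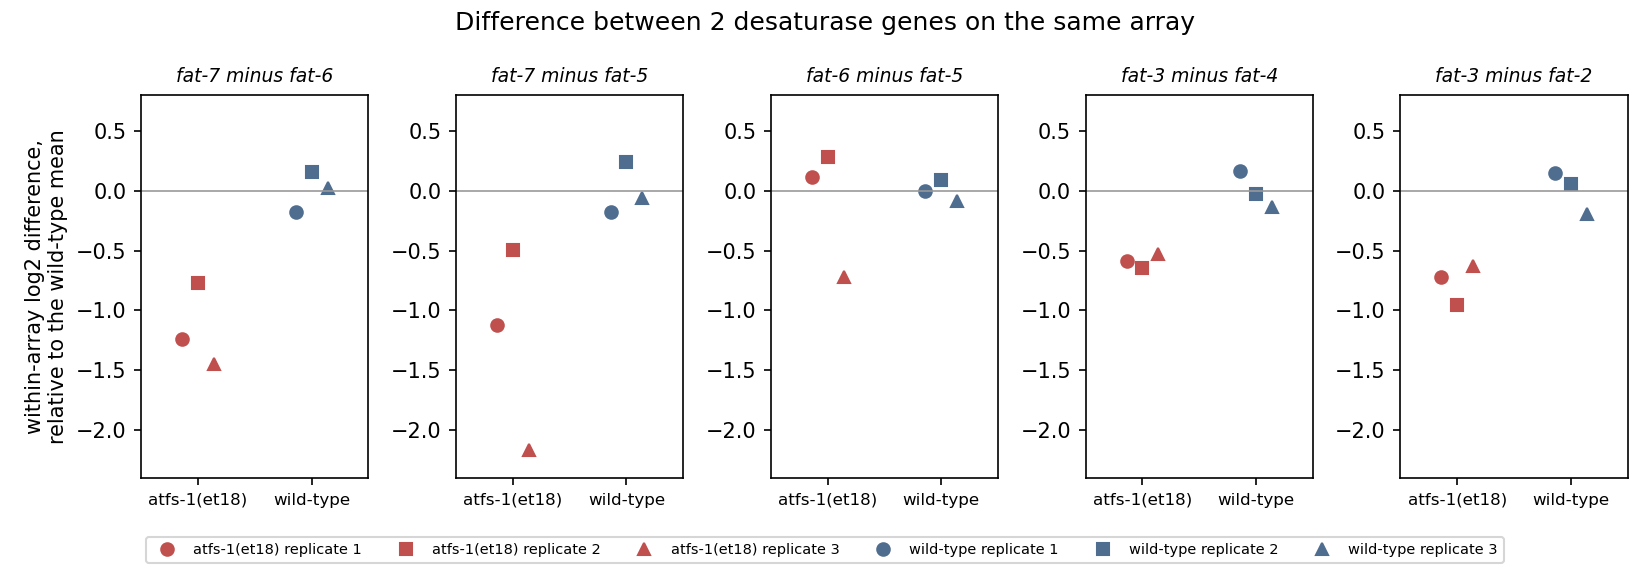
Difference in log2 signal between 2 desaturase genes on the same array, relative to its mean over the wild-type arrays, for 5 pairs; atfs-1(et18) is left and wild-type right, and each point is an array. The mutant arrays lie below the wild-type arrays for both pairs with fat-7 and both pairs with fat-3, and overlap with them for fat-6 minus fat-5.

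The steps from oleic to linoleic acid and to omega-3 fatty acids showed no change that passed the threshold. The signals of fat-2 (W02A2.1) were 10325, 10968 and 8286 in atfs-1(et18) worms, against 9048, 10810.1 and 10930 in wild-type worms, which overlap nearly completely. Its log2 change was -0.06 ± 0.15 (adjusted p = 0.885), and the 95% interval of its fold was 0.751 to 1.22. The signals of fat-1 (Y67H2A.8) were 5273, 5022 and 5246 in atfs-1(et18) worms, against 5383, 5749.6 and 7445 in wild-type worms. All 3 mutant arrays lay below the wild-type arrays, by a small margin for wild-type replicate 1. The change of -0.24 ± 0.15 did not pass the threshold (adjusted p = 0.474), and the 3 of 11 probe sets whose arrays did not overlap, all lower, stand beside 23.3% of all probe sets tested that did not overlap in either direction and 10.8% that were lower.

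Of the front-end desaturases, fat-3 (W08D2.4) fell. Its signals were 2436, 2198 and 2076 in atfs-1(et18) worms, against 3879, 4346 and 3695 in wild-type worms. The arrays of each genotype lay close together, and those of the mutant were far below. Means were 2237 ± 183 in atfs-1(et18) worms and 3973 ± 336 in wild-type worms (SD, n = 3 each), with a log2 change of -0.83 ± 0.14 (SE, limma adjusted p = 0.0132). The pooled SD of fat-3 within genotypes was 0.119 on the log2 scale, smaller than that of 92.3% of the probe sets tested, whereas that of fat-7 was 0.468 and larger than that of 80.1%. Every alternative kept the direction of fat-3 (-0.89 to -0.76). Its call ended without atfs-1(et18) replicate 1 (-0.89, adjusted p = 0.0588), replicate 2 (-0.82, 0.0540) or replicate 3 (-0.78, 0.0608), without wild-type replicate 2 (-0.76, 0.0750), with median scaling (adjusted p = 0.0539) and without the intensity trend (0.0502). Without the 2 arrays high in germline markers it was -0.79 (adjusted p = 0.0386).

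The next enzyme, encoded by fat-4 (T13F2.1), had signals of 4728, 4443 and 3891 in atfs-1(et18) worms, against 4494, 5746 and 5249.8 in wild-type worms. Wild-type replicate 1 lay among the mutant arrays, and the change of -0.24 ± 0.15 did not pass the threshold (adjusted p = 0.461, fold 0.845 with an interval of 0.668 to 1.07). The genes fat-4 and fat-3 are direct neighbours among the protein-coding genes of chromosome IV in the gene table of assembly WBcel235, as are fat-1 and fat-2. Within arrays the log2 signal of fat-3 minus that of fat-4 was -0.96, -1.02 and -0.91 in atfs-1(et18) worms, against -0.21, -0.40 and -0.51 in wild-type worms. The change of fat-3 was thus 0.59 more negative than that of its neighbour on the log2 scale, and 0.77 more negative than that of fat-2. These last 2 pairs were picked after their values had been seen and carry no test.

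**Figure D3:**
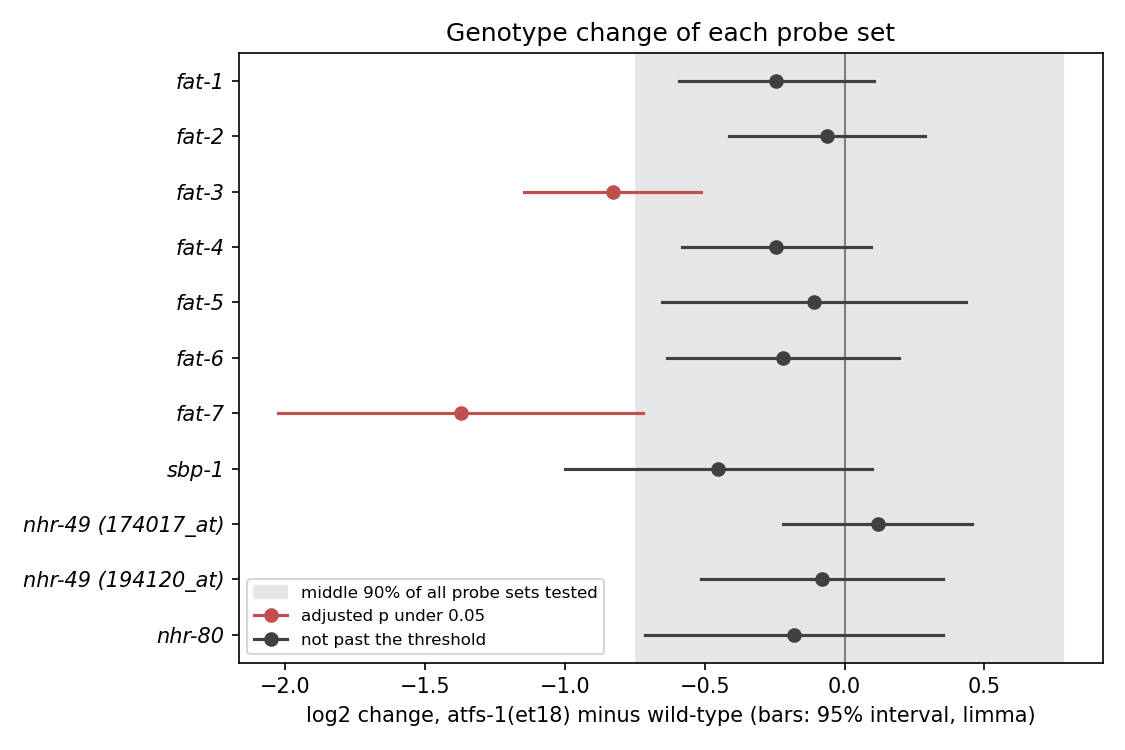
Log2 change (atfs-1(et18) minus wild-type) of each probe set with its 95% interval from limma; red marks an adjusted p under 0.05, and the grey band holds the middle 90% of all probe sets tested (-0.74 to 0.78). The changes of fat-7 (-1.37) and fat-3 (-0.83) lie left of the band, and all others lie inside it with intervals that include 0.

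None of the 3 regulator genes passed the threshold. The signals of sbp-1 (Y47D3B.7), an activator of fatty acid synthesis genes, were 562, 651 and 521 in atfs-1(et18) worms, against 540.4, 960.2 and 939 in wild-type worms. Wild-type replicates 2 and 3 were above every mutant array, while wild-type replicate 1 lay among them. The log2 change was -0.45 ± 0.24 (SE, adjusted p = 0.391). Without wild-type replicate 1 it was -0.72 with adjusted p = 0.0402, and with array weights it was -0.65 with adjusted p = 0.0420. Over all 18 of its alternatives the change was negative (-0.72 to -0.31), and without both arrays high in germline markers the adjusted p was 0.0989.

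The nuclear receptor gene nhr-80 (H10E21.3) had a similar layout, with signals of 284, 316 and 269 in atfs-1(et18) worms, against 238, 409 and 361 in wild-type worms. The lowest of all was wild-type replicate 1, and the change of -0.18 ± 0.23 did not pass the threshold (adjusted p = 0.766). It was -0.41 without wild-type replicate 1 and -0.02 without wild-type replicate 2, and -0.36 without both arrays high in germline markers (adjusted p = 0.383). For nhr-49 (K10C3.6) the 2 probe sets gave changes of opposite sign, neither beyond its error. Probe set 174017_at read 2324, 2023 and 2629 in atfs-1(et18) worms, against 2009.9, 2272 and 2118 in wild-type worms (0.12 ± 0.15, adjusted p = 0.760). Probe set 194120_at read 725, 587 and 472 in atfs-1(et18) worms, against 635, 638 and 587 in wild-type worms (-0.08 ± 0.19, adjusted p = 0.879). The interval of the fold was 0.858 to 1.37 by the first probe set and 0.701 to 1.28 by the second. The probe sets of sbp-1 and nhr-80, like that of fat-6, can bind related transcripts.

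Part of the spread within a genotype was shared among these genes. On wild-type replicate 1, 6 of the 7 desaturase genes had the lowest signal of their genotype, and their mean log2 signal was 0.20 below the genotype mean (a deviation of -0.20). On wild-type replicate 3 it was 0.19 above the genotype mean, with 5 of the 7 at their highest. In the mutant, replicate 3 had the lowest signal for 5 of the 7 genes (mean deviation -0.14), with fat-7 at -0.56, while fat-5 at 0.35 and fat-1 at 0.02 were above their genotype mean there. Intestine markers deviated in the same directions, by -0.19 on atfs-1(et18) replicate 3, -0.28 on wild-type replicate 1 and 0.19 on wild-type replicate 3. Hypodermis markers did so only slightly on atfs-1(et18) replicate 3 (-0.03). They went the other way on wild-type replicate 1 (0.12) and wild-type replicate 3 (-0.18). Germline markers deviated in the opposite directions on these arrays, by 0.20, 0.52 and -0.37. The part of these tissues in the values of the desaturase genes was not tested.

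**Figure D4:**
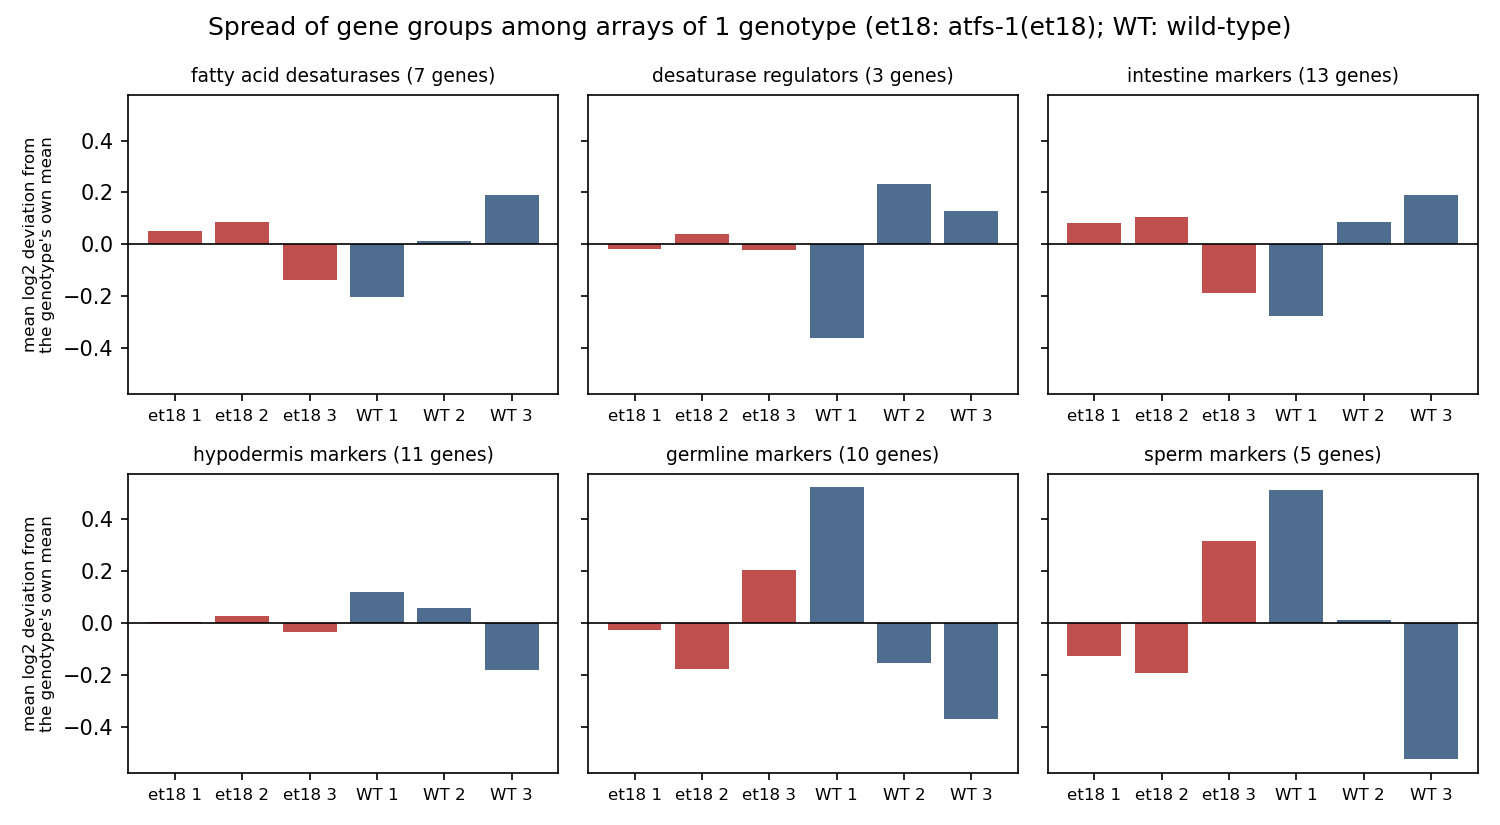
Mean log2 deviation of 6 gene groups from the mean of their own genotype on each array (bars, atfs-1(et18) left and wild-type right). Desaturase genes and intestine markers lie below their genotype mean on atfs-1(et18) replicate 3 and wild-type replicate 1, where germline and sperm markers lie above it. Hypodermis markers lie slightly below it on atfs-1(et18) replicate 3 and above it on wild-type replicate 1.

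Of all 10613 genes tested between the genotypes, limma called 145 lower and 286 higher. The intestine markers had a median log2 change of -0.13, and 3 of 13 passed the threshold, all lower. These were cpr-1 (-2.77 ± 0.19) and cpr-4 (-2.69 ± 0.17), which encode cysteine proteases, and the peptide transporter gene pept-1 (-1.21 ± 0.17). The summed signal of the 13 markers ran from 85569 to 122668 in atfs-1(et18) worms, against 124005 to 156747 in wild-type worms. Without cpr-1 and cpr-4, left out after their values had been seen, the sums overlapped, at 80359.5 to 118312 in atfs-1(et18) worms, against 92606 to 125996 in wild-type worms. Of the yolk genes, which are also transcribed in the intestine, 5 of 5 fell (median -2.25, summed signal 1091 to 1686 in atfs-1(et18) worms, against 6925 to 11409 in wild-type worms). No hypodermis marker passed (0 of 11, 3 at an unadjusted p under 0.05, median -0.19), with a summed signal of 73115 to 89164 in atfs-1(et18) worms, against 77166 to 102059 in wild-type worms. Limma called 0 of 10 germline (1 at an unadjusted p under 0.05), 0 of 5 sperm (0), 0 of 5 pharynx (0), 0 of 5 body wall muscle (3), 0 of 6 neuron (3) and 0 of 6 molting genes (1). Over all probe sets tested, 17.2% were at an unadjusted p under 0.05. The median log2 change was -0.96 for pharynx, -0.45 for neuron and -0.38 for body wall muscle markers, 0.18 for germline and -0.05 for sperm markers and 0.002 for molting genes. All 5 pharynx and all 5 muscle markers had a negative change. Summed pharynx signals overlapped, at 450 to 2855 in atfs-1(et18) worms, against 1597 to 6739 in wild-type worms. The lowest sum was that of atfs-1(et18) replicate 2, and the highest that of wild-type replicate 1. The pharynx median ran from -1.53 to -0.22 over its alternatives. The summed muscle signal was 27792 to 31325 in atfs-1(et18) worms, against 33147 to 36654 in wild-type worms, with no overlap. The summed germline signal ran from 10985 to 14739 in atfs-1(et18) worms, against 8631 to 17814 in wild-type worms. The 3 intestine markers and 5 yolk genes that passed were lower, as were fat-7 and fat-3, while 5 of the 13 intestine markers had a positive change. The part of these tissues in the changes of fat-7 and fat-3 was not tested.

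Other genes of fatty acid metabolism were set beside the desaturases from lists. Their counts stand beside 145 genes called lower and 286 called higher among all 10613 genes tested. Counts at an unadjusted p under 0.05 stand beside 17.2% of all probe sets tested. In fatty acid synthesis and elongation, 2 of 14 genes tested rose and 0 fell, although 11 of the 14 had a negative change (median -0.24, against 0.005 over the 10613 genes tested). At an unadjusted p under 0.05 were 6 of the 14, in both directions. The elongase gene elo-8 was not tested. Both that rose encode ATP citrate lyase, which supplies acetyl-CoA and is no elongase. The signals of acly-2 were 1228, 1167 and 1352 in atfs-1(et18) worms, against 749, 708 and 735 in wild-type worms, and those of acly-1 were 3672, 3465 and 3186 in atfs-1(et18) worms, against 2149, 2132 and 2095 in wild-type worms. Neither gene's arrays overlapped between genotypes, and the log2 changes were 0.77 ± 0.14 and 0.69 ± 0.13 (SE, limma adjusted p = 0.0208 and 0.0217). Each call ended in 8 of 19 alternatives, with adjusted p up to 0.112 for acly-2 and 0.141 for acly-1. Without the 2 arrays high in germline markers, the call of acly-2 ended (0.73, limma adjusted p = 0.0584). That of acly-1 stayed (0.76, 0.0342). The gene pod-2 encodes acetyl-CoA carboxylase, the first committed enzyme of the pathway, and was singled out after its values had been seen. It had signals of 551, 559 and 416 in atfs-1(et18) worms, against 759, 900.3 and 1006 in wild-type worms (-0.81 ± 0.19, adjusted p = 0.0530, range over its alternatives 0.0121 to 0.193).

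The list of other genes reported to depend on NHR-49 held 1 of 5 tested that rose and 0 that fell (3 of 5 at an unadjusted p under 0.05, median -0.04). The gene that rose was acs-2, an acyl-CoA synthetase gene of mitochondrial fatty acid oxidation, with signals of 917, 980.1 and 680 in atfs-1(et18) worms, against 257, 421 and 465 in wild-type worms. It rose 2.30-fold (log2 change 1.20 ± 0.26 SE, adjusted p = 0.0373). Another member, cpt-5, named after its values had been seen, had a change of similar size in the other direction that did not pass the threshold (-1.18 ± 0.31 SE, adjusted p = 0.0850). Its signals were 281, 570.02 and 321 in atfs-1(et18) worms, against 596, 938 and 1069 in wild-type worms, with no overlap. The acs-2 call ended in 8 of 19 alternatives (adjusted p up to 0.175), among them the removal of any 1 atfs-1(et18) array (changes of 1.14, 1.096 and 1.36 without replicates 1, 2 and 3) or of wild-type replicate 2 (1.29). The list's sixth gene, fmo-2, was too dim to be tested.

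In phosphatidylcholine synthesis, which is linked to SBP-1 activity, 1 of 7 genes fell and 0 rose (median -0.35, with 5 of 7 negative). At an unadjusted p under 0.05 were 4 of the 7, all with a negative change. The methyltransferase gene pmt-1 had signals of 3421, 3488 and 3077 in atfs-1(et18) worms, against 5761, 7350.2 and 6942 in wild-type worms. Its log2 change was -1.0 ± 0.14 (SE, adjusted p = 0.00683), and it passed the threshold in all 18 of its alternatives (adjusted p up to 0.0485). Its probe set can bind related transcripts.

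Electrons reach desaturases through cytochrome b5. Of 4 genes listed as electron donors of desaturases, T05H4.4 was not tested. Limma called 0 of the 3 tested (1 at an unadjusted p under 0.05, median -0.27). Among them, cytb-5.1 was at -0.56 ± 0.14 (adjusted p = 0.0707) and cytb-5.2 at -0.27 ± 0.17. The call of cytb-5.1 was made with array weights (adjusted p = 0.0236) and without wild-type replicate 1 (0.0403). Of 11 other regulators and sensors of desaturase expression, among them the mediator subunit gene mdt-15 and the membrane fluidity sensor gene paqr-2, limma called 0 (1 at an unadjusted p under 0.05, median -0.03). The largest change in that list was that of hlh-30, which encodes the TFEB homologue (0.72 ± 0.24, adjusted p = 0.162), and it passed without wild-type replicate 3 (0.98, adjusted p = 0.0351) and with array weights (0.73, 0.0469). The acyl-CoA dehydrogenase gene acdh-11 had a change of 0.38 ± 0.20. The 2 sphingolipid desaturases (ttm-5 at -0.10 ± 0.25, F33D4.4 at -0.18 ± 0.19) and the 5 genes of triglyceride synthesis and storage (dhs-3 at -0.39 ± 0.25, plin-1 at -0.40 ± 0.26) held no gene that limma called and none at an unadjusted p under 0.05. With array weights dhs-3 passed narrowly (-0.66, adjusted p = 0.04997).

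**Figure D5:**
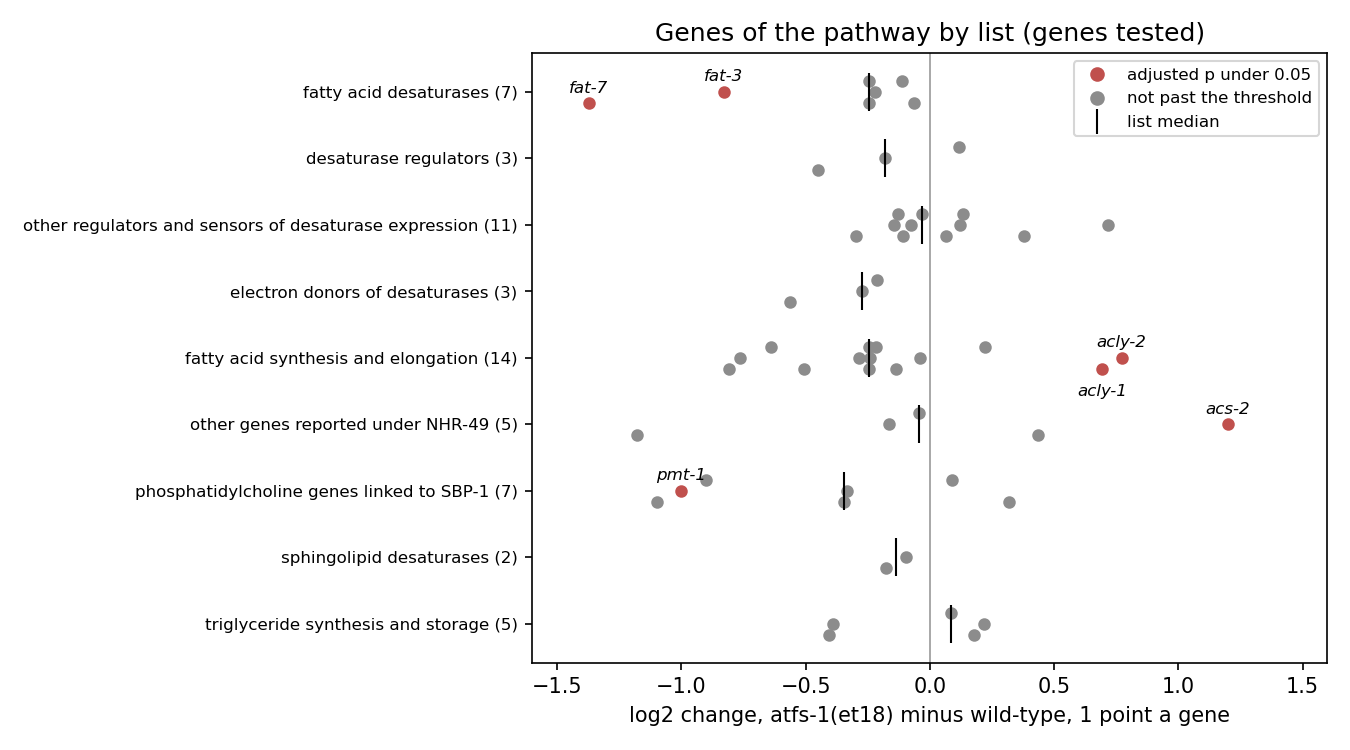
Log2 change (atfs-1(et18) minus wild-type) of each gene tested in 9 lists, 1 point a gene, with black marks at the list medians and red for an adjusted p under 0.05. The falls of fat-7, fat-3 and pmt-1 lie left of 0, and the rises of acly-1, acly-2 and acs-2 lie right of it.

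Genes whose pattern over the 6 arrays was most like that of a first-step desaturase were found by the root mean square difference of log2 signals, each taken relative to the gene's own wild-type mean, among 6574 candidate probe sets. Closest to fat-7 were C24B9.3 (0.162), the infection response gene irg-3 (0.171) and ZK896.5 (0.181). The gene irg-3 had signals of 662, 718 and 417 in atfs-1(et18) worms, against 1065, 1821 and 1669 in wild-type worms, with the same low mutant replicate 3 and low wild-type replicate 1 as fat-7. Nearest to fat-6 were the aspartyl protease gene asp-13 (0.0411), the ferritin gene ftn-2 (0.0621) and F09B12.3 (0.0622). Nearest to fat-5 were ost-1, which encodes the osteonectin homologue (0.0603), F54D11.4 (0.0713) and egl-45, which encodes a translation initiation factor subunit (0.0745). These distances describe 6 arrays and include the genotype difference itself.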

How the data were processed

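Whole-worm RNA of 3 atfs-1(et18) and 3 wild-type samples was measured on Affymetrix arrays from 2 ug of RNA each, per the labels. The deposited values, linear intensity signals for each probe set, come from MAS5 according to the notes on processing (per the submitters' processing notes). No source used here gives its version, detection calls or a genome build. MAS5 subtracts background and mismatch signal, so dim probe sets are less certain.

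The log2 of each deposited signal was used as it stood. After removal of 77 control probe sets, the 13792 probe sets above the 40th percentile of their own array on at least 3 arrays were tested with limma 3.58.1 in R 4.3.3 (intensity trend, two-sided, Benjamini-Hochberg over all tested). Symbols came from the platform annotation, updated through gene identifiers. Lists use 1 probe set a gene, that with the highest mean. All members are named. Of each list the called genes are named (up to 4), or else the 2 with the smallest p, and pod-2, cpt-5 and the called markers were added. For each first-step desaturase the 3 nearest genes are named. The members and lists were chosen with earlier results of these data known. The labels call the replicates biological. Alternatives covered scaling, offsets, filters, variance priors, array weights, the replicate block, cross-binding probe sets, 1 probe set a gene and leaving out each array; leaving out 2 arrays together was added after seeing the data. The limma script was tested on simulated data. Figures were drawn with matplotlib 3.10.9.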

Additional observations from a re-analysis of the deposited data

How the results depend on the processing

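The 2 calls among the 11 probe sets became 0 with median scaling and without the intensity trend, 1 with the replicate block, and 0 to 3 when 1 array was left out; they were 2 without wild-type replicate 1 and atfs-1(et18) replicate 3 together, a setting chosen after seeing the data. The directions of fat-3 and fat-7 were negative in all 19 alternatives. Over all probe sets, 542 calls became 1637 with array weights, 336 with the replicate block, 313 after dropping probe sets that may cross-bind, and 176 to 867 with 1 array left out. The labels do not say whether same-numbered samples were grown or processed together, and the numbers were not treated as pairs. Deviations of same-numbered arrays correlated at 0.17, 0.18 and -0.40 for numbers 1, 2 and 3, which cannot settle it. With the replicate block the adjusted p of fat-7 was 0.0592 and that of fat-3 was 0.0423.

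Small changes that were not called turned sign in some settings. With quantile normalization fat-2 was at 0.071, ost-1 at 0.042 and ftn-2 at 0.076. With array weights nhr-49 by probe set 194120_at was at 0.038. With 1 array left out, or the 2 together, fat-2 ranged from -0.15 to 0.058, fat-5 from -0.39 to 0.086, nhr-49 from -0.017 to 0.21 by 174017_at and from -0.23 to 0.092 by 194120_at, ttm-5 from -0.39 to 0.074, ost-1 from -0.45 to 0.080, F54D11.4 from -0.45 to 0.053 and egl-45 from -0.46 to 0.0018. The causes were not tested.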
